A study of Mus musculus with 13 samples.

Results

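The 8 genes described here encode endothelial adhesion and trafficking molecules that blood-borne cells meet on thymic vessels: Selp, Sele, Vcam1, Icam1, Icam2, Madcam1, Ackr1 and Jam2. They were matched by mouse symbol to the deposited table of 53379 genes, where all 8 were found once, and all 8 passed the filter on low counts. After total body irradiation (TBI), the mean levels of Selp and Ackr1 were 4.12 and 4.19 times as high at day 1 as at steady state, and at day 7 both had ranges that overlapped those of steady state. Selp, Ackr1, Sele and Madcam1 were lower at day 7 than at day 1, whereas Icam1, Icam2, Vcam1 and Jam2 did not pass the test in any of the 6 comparisons.

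The thymus holds no lasting pool of early T cell progenitors and depends on cells that arrive from the blood. As in lymph nodes, these cells are held first by selectins, which bind carbohydrate-bearing ligands such as PSGL-1 and allow rolling, and then by immunoglobulin-family ligands of leukocyte integrins, which allow arrest. P-selectin, VCAM-1 and ICAM-1 on thymic endothelium are known to take part in progenitor entry, and P-selectin-bearing endothelium near the perivascular space is known as the thymic portal.

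RNA was sequenced in bulk from CD45- stroma cells of the thymus of wild-type C57BL/6 mice aged 2 months. The steady-state group (untreated, PBS) had 4 libraries, and the groups at day 1, day 4 and day 7 after sublethal TBI had 3 libraries each. The steady-state libraries are named below by their PBS control: PBS day 1 replicate 2, PBS day 4 replicate 2, PBS day 7 replicate 1 and PBS day 7 replicate 2, and their values are given in this order. The labels do not say whether the libraries came from separate mice, so p-values measure the spread between libraries.

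Each library held 15721866 to 52056896 counted reads, with a median of 44078906. Endothelial markers were present in every library, with Pecam1 at 199 to 432 CPM (reads of a gene scaled by TMM to a common library size) and Cdh5 at 28.3 to 57.3 CPM. The libraries also held hematopoietic RNA: Ptprc, which encodes CD45, was at 24.0 to 119 CPM at steady state, 12.7 to 15 CPM at day 1, 4.07 to 4.54 CPM at day 4 and 21.6 to 606 CPM at day 7. The summed CPM of 11 thymocyte markers was 219 to 719 at steady state, 114 to 147 at day 1, 24.8 to 36.2 at day 4 and 198 to 4420 at day 7. In bulk samples of this kind, fewer cells of a type and less RNA per cell cannot be told apart.

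RefSeq promoter windows (GRCm38.p6) were at hand for 5 of the 8 genes. They are shown because Selp, Ackr1, Sele and Madcam1 are the genes that passed a test below, and Icam1 is an inflammation-inducible adhesion gene that did not. The 250 bases before the RefSeq start were searched on both strands for GGNNNTTCC (a kappaB-type motif, found in 15.7% of all 32851 windows), TGANTCA (an AP-1-type motif, 6.75%) and TTCNNNGAA (a STAT-type motif, 7.02%). Capitals mark the matches, and each stretch is written 5′ to 3′ on the strand of the gene.
Selp, chr1:164115014-164115263, plus strand: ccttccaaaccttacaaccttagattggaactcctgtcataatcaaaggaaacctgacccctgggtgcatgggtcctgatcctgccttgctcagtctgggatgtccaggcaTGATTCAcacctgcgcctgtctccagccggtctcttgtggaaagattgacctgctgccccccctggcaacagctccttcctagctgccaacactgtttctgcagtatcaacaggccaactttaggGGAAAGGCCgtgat
Sele, chr1:164048079-164048177, plus strand: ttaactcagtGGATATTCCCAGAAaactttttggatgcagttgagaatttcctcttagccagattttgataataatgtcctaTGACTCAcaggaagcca
Ackr1, chr1:173333616-173333644, minus strand: cttcaaaacaGGAAGCCCCaggatggtgc
Icam1, chr9:21015777-21015916, plus strand: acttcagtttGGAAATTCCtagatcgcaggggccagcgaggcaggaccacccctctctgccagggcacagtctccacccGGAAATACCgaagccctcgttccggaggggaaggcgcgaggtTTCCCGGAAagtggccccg
Madcam1, chr10:79664466-79664507, plus strand: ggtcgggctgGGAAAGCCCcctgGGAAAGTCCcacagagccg
The Selp stretch holds a TGANTCA match 139 to 133 bases before the start and a GGNNNTTCC match on the opposite strand 14 to 6 bases before it. The Sele stretch holds a match to each of the 3 motifs, and its GGNNNTTCC and TTCNNNGAA matches share 4 bases. Ackr1 has 1 GGNNNTTCC match, on the opposite strand, 131 to 123 bases before the RefSeq start. That site lies inside the gene as deposited, since the RefSeq start is 247 bases inside its edge, and the annotation places a UTR exon of both Ackr1 and the neighbouring gene Cadm3 there. Icam1 has a site that matches GGNNNTTCC on both strands, another match on the opposite strand and 1 TTCNNNGAA match, and Madcam1 has 2 GGNNNTTCC matches, both on the opposite strand. These matches describe the letters of the windows and were not tested against the expression values.

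Levels were compared between genes as CPM per kilobase of exon, over the full exonic length. That length was not corrected for parts shared with exons of other genes. These parts were 25.69% for Ackr1, 14.14% for Selp, 11.72% for Icam1 and at most 0.69% for the others. At steady state, Icam1 (mean 44.3), Jam2 (43.3) and Vcam1 (32.9) were the highest, and each overlapped the next in its range over libraries. Icam2 (17.3) lay below the range of Vcam1, and Ackr1 (7.95), Selp (2.8), Sele (1.54) and Madcam1 (1.54) followed with overlapping neighbours. By day 1, Ackr1 had moved to the third place (33.3), with a range that overlapped those of Vcam1 above it and Jam2 below it. Selp reached 11.6 at day 1, outside the ranges of Icam2 above it and Sele below it. Madcam1 was last in each group with means of 0.321 at day 4 and 0.214 at day 7.

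**Figure D1:**
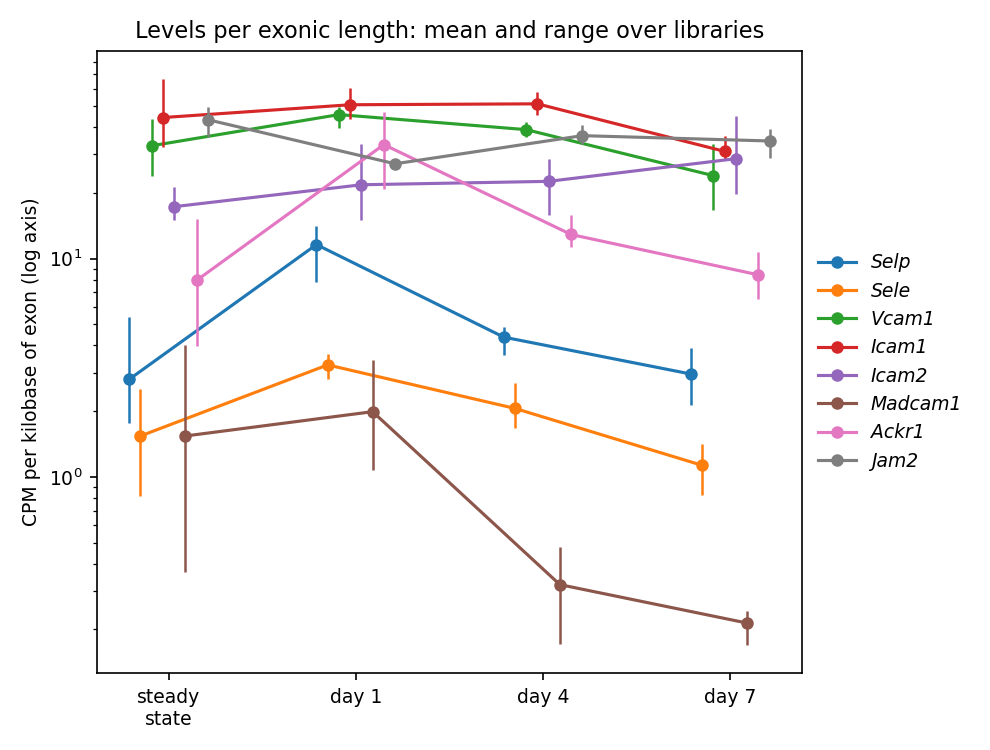
Levels of the 8 genes as CPM per kilobase of exon on a log axis, by group, with dots for the mean and vertical lines for the range over libraries (4 at steady state, 3 at each day). Ackr1 moves from the fifth place at steady state to the third at day 1, while Icam1, Vcam1, Jam2 and Icam2 stay between 17.3 and 51.2.

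The first comparison asked how the vessel adhesion genes differed from steady state 1 day after irradiation. Selp and Ackr1 rose, and none of the 8 genes fell past the threshold. These 2 of 8 genes stand beside a background of 2.35% of the 19984 genes tested that were called in either direction, and 1.68% that were called as higher at day 1. The median log2 fold change of the 8 genes was 0.42, against -0.10 over all genes tested.

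Selp encodes P-selectin, which endothelium and platelets store in granules and which binds PSGL-1 on leukocytes. Of the exonic length of Selp, 14.14% overlaps exons of Gm16548 and Gm16587. The gene spans chr1:164115264-164150026 on the plus strand (GRCm38), directly after the stretch shown above. It was at 7.79, 23.8, 7.83 and 10 CPM in the 4 steady-state libraries, from 207 to 953 reads. At day 1 it was at 62.2, 56.4 and 34.6 CPM, at day 4 at 20.5, 15.9 and 21.4 CPM, and at day 7 at 9.44, 12.5 and 17.3 CPM. All 3 day 1 libraries were above every other library, while the ranges at day 4 and at day 7 overlapped that of steady state. The day 1 mean was 51.0 ± 14.6 CPM (SD, n = 3) against 12.4 ± 7.71 CPM (SD, n = 4), a log2 fold change of 2.04 (SE 0.393, 95% interval 1.2 to 2.89, adjusted p = 0.0136, edgeR quasi-likelihood test). One steady-state library, PBS day 4 replicate 2, stood apart from the other 3, and without it the log2 fold change was 2.58 (adjusted p = 0.000902). The call was lost without PBS day 7 replicate 2 (adjusted p = 0.0579), day 1 replicate 1 (0.0624) or day 1 replicate 2 (0.0534), and in the fit with only the groups compared (0.0773), with log2 fold changes of 1.88 to 1.99.

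Ackr1 encodes an atypical chemokine receptor that binds many inflammatory chemokines without G protein signalling and is known as a marker of venular endothelium. The gene lies on the minus strand at chr1:173331886-173333750, and 25.69% of its exonic length overlaps exons of Cadm3. It was at 5.57, 21.4, 6.43 and 11.3 CPM at steady state, and at 66.2, 45.2 and 29.2 CPM at day 1. Levels at day 4 were 15.9, 16.3 and 22.3 CPM, and those at day 7 were 9.15, 11.4 and 15 CPM. As with Selp, the day 1 libraries lay above all others and PBS day 4 replicate 2 was the highest steady-state library. The day 1 mean of 46.9 ± 18.5 CPM (SD, n = 3) was above the steady-state mean of 11.2 ± 7.25 CPM (SD, n = 4) by a log2 fold change of 2.07 (SE 0.431, 95% interval 1.14 to 3.0, adjusted p = 0.0222). Cadm3 itself was at 3.6 to 8.04 CPM at steady state and 7.92 to 12.6 CPM at day 1, and its part in the Ackr1 counts was not tested. The call was lost with the thymocyte score as a covariate (adjusted p = 0.0568), in the fit with only the groups compared (0.108), and without PBS day 7 replicate 1 (0.0728), PBS day 7 replicate 2 (0.073), day 1 replicate 1 (0.119) or day 1 replicate 2 (0.0636).

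Selp and Ackr1 were the closest pair among the genes. Over the 13 libraries, the Pearson correlation of their log2 CPM was 0.982, and it was 0.956 over the 10 libraries left without day 1. Of 11458 genes with a mean of at least 5 CPM, Ackr1 was the most alike to Selp and Selp the most alike to Ackr1. Scfd2 (r = 0.943) and Lcn2 (0.939) came next for Selp, and Qpctl (0.955) and Pgd (0.951) for Ackr1. These correlations describe libraries that share groups and normalization and carry no test.

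**Figure D2:**
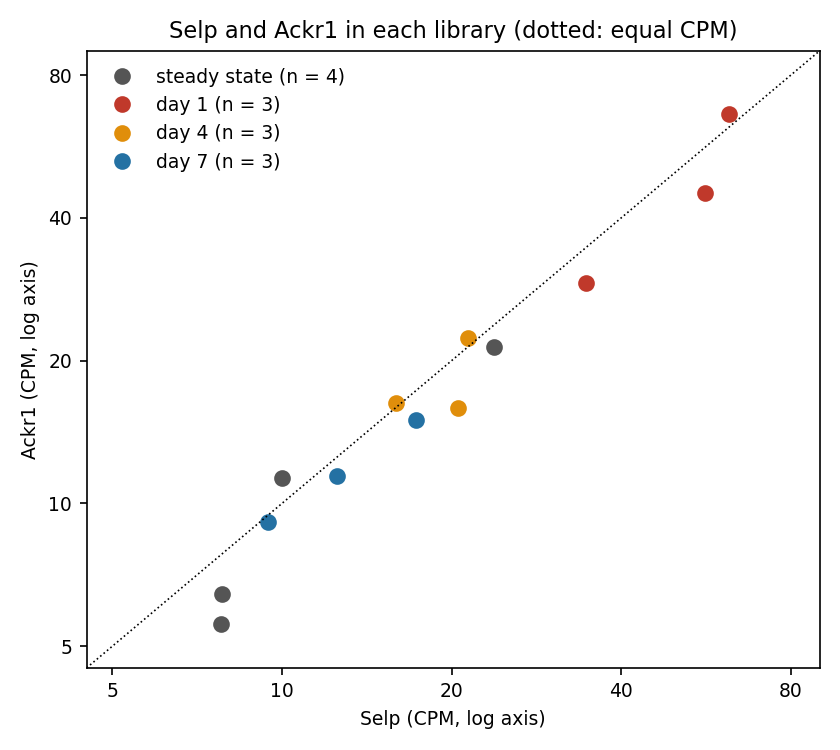
Selp (x axis) and Ackr1 (y axis) in CPM on log axes, with 1 point for each of the 13 libraries, coloured by group, and a dotted line at equal CPM. The 3 day 1 libraries lie at the upper right, and 1 steady-state library, at 23.8 and 21.4 CPM, lies with the day 4 libraries.

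Sele encodes E-selectin, which endothelium makes after inflammatory stimulation (chr1:164048234-164057677, plus strand). It was a low gene, at 7.35, 5.65, 2.54 and 2.37 CPM at steady state and 10.7, 9.61 and 8.19 CPM at day 1. The day 4 values were 7.81, 5.32 and 4.89 CPM and the day 7 values 3.34, 2.40 and 4.09 CPM. The day 1 range lay above the steady-state range without overlap. The log2 fold change at day 1 was 1.08 (SE 0.393, 95% interval 0.23 to 1.93), and it did not pass the test (adjusted p = 0.185).

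The immunoglobulin-family ligands of integrins included the most abundant of the 8 genes. Vcam1, the ligand of alpha-4 integrins (chr3:116109949-116129688, minus strand), was at 315, 388, 250 and 212 CPM at steady state and 440, 426 and 350 CPM at day 1. It was at 377, 339 and 321 CPM at day 4 and at 298, 148 and 193 CPM at day 7. The day 1 and steady-state ranges overlapped, and the log2 fold change of 0.48 (SE 0.264, 95% interval -0.09 to 1.05) did not pass the test (adjusted p = 0.379).

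Icam1 encodes a ligand of the integrin LFA-1 that many stromal cells can make (chr9:21015985-21028817, plus strand). Of its exonic length, 11.72% overlaps exons of Gm47079. Icam1 was at 290, 151, 191 and 141 CPM at steady state. It was at 262, 191 and 210 CPM at day 1, 198, 252 and 220 CPM at day 4 and 158, 125 and 123 CPM at day 7. Its range at steady state held all values of days 1 and 4, and the log2 fold change at day 1 was 0.19 (95% interval -0.35 to 0.74, adjusted p = 0.741). Across the libraries it was most alike to Wfdc18 (r = 0.962), Cd74 (0.959) and H2-Aa (0.958), and Cd74 and H2-Aa are genes of MHC class II presentation. Among the other genes of the set, Vcam1 (0.685) and Madcam1 (0.673) were closest to it.

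Icam2, a further LFA-1 ligand that resting endothelium carries (chr11:106377656-106388075, minus strand), was at 28.8 to 40.7 CPM at steady state and 28.5 to 63.7 CPM at day 1. It was at 30.2 to 54.6 CPM at day 4 and 37.6 to 85.2 CPM at day 7, where the highest value belonged to replicate 2. All of these ranges overlapped, and its largest log2 difference from steady state, at day 7, was 0.73 (SE 0.347, 95% interval -0.02 to 1.48, adjusted p = 0.393).

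Jam2 encodes a junctional adhesion molecule at endothelial cell contacts (chr16:84774123-84825928, plus strand). It was at 256, 258, 213 and 290 CPM at steady state and at 167, 156 and 157 CPM at day 1. Levels were 207, 197 and 240 CPM at day 4 and 231, 210 and 169 CPM at day 7. All 3 day 1 values lay below every steady-state, day 4 and day 7 value. The log2 fold change at day 1 was -0.67 (SE 0.185, 95% interval -1.07 to -0.27), which missed the threshold in edgeR (adjusted p = 0.0853) and passed it in DESeq2 (-0.61, adjusted p = 0.0187).

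**Figure D3:**
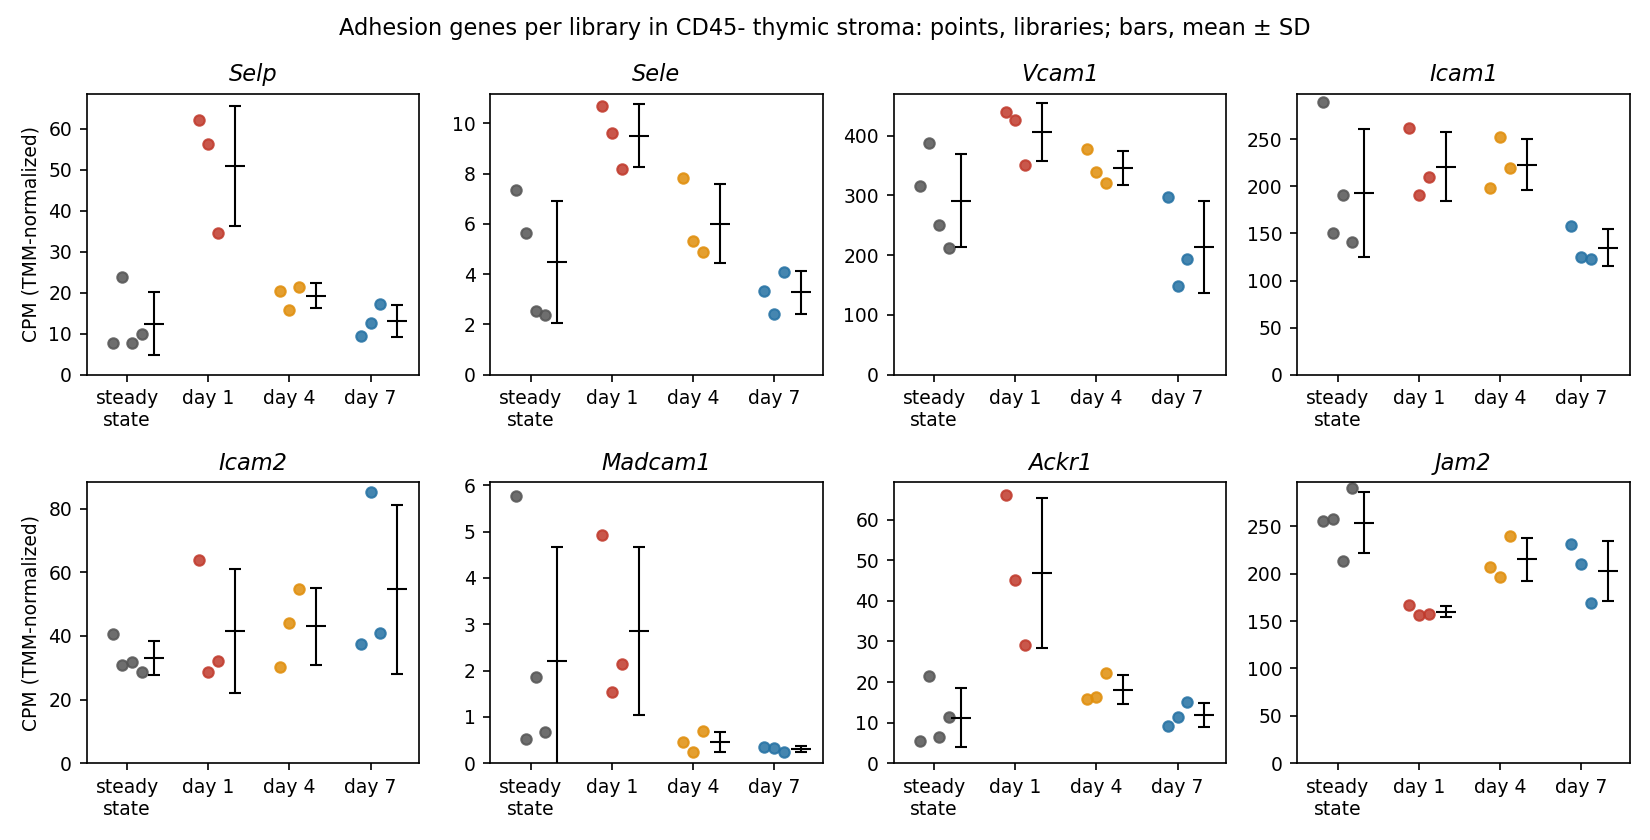
CPM of each of the 8 genes in each library (points) by group, with the mean and SD beside them (bars), on linear axes that start at 0. Selp and Ackr1 are highest in all 3 day 1 libraries, Jam2 is lowest there, and Madcam1 is under 0.7 CPM in every library of days 4 and 7.

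None of the 8 genes was called at day 4 or at day 7 against steady state. In edgeR, 1 of 8 genes, Madcam1, had an unadjusted p under 0.05 in each of these comparisons, and DESeq2 called 0 of 8 at day 4 and 1 of 8, Madcam1, at day 7. The edgeR background was 0.29% of genes called at day 4 and 0.005% at day 7, so edgeR called few genes of any kind. Among all genes, DESeq2 called 645 at day 4 and 1081 at day 7. Median log2 fold changes were 0.31 at day 4 and -0.39 at day 7, against -0.13 and 0.00 over all genes tested. Selp differed from steady state by 0.08 at day 7 (95% interval -0.77 to 0.92) and Ackr1 by 0.08 (-0.84 to 1.01).

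Madcam1 encodes the mucosal addressin, a ligand of the alpha-4 beta-7 integrin and of L-selectin (chr10:79664559-79668537, plus strand). It had few reads, from 7 to 263 per library. Its levels at steady state were 5.77, 0.53, 1.87 and 0.68 CPM, so that a single library, PBS day 1 replicate 2, carried most of its mean of 2.21 ± 2.45 CPM (SD, n = 4). At day 1 it was at 4.92, 1.53 and 2.14 CPM, at day 4 at 0.45, 0.25 and 0.68 CPM, and at day 7 at 0.35, 0.33 and 0.24 CPM. The day 7 values lay below all of those at steady state and at day 1. The log2 fold change from steady state to day 7 was -2.84 (SE 0.817, adjusted p = 0.136 in edgeR, 0.00905 in DESeq2), and it was -1.74 (adjusted p = 0.342) without PBS day 1 replicate 2.

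The later comparisons followed the same genes from day 1 onwards, and they share the day 1 libraries with the comparison above. At day 7 against day 1, 4 of 8 genes fell (Selp, Sele, Ackr1 and Madcam1) and none rose. The background for this comparison was 8.13% of genes called in either direction and 4.45% called as lower at day 7. The median log2 fold change of the 8 genes was -1.23, against 0.05 over all genes tested.

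Among the selectins, Selp fell by 1.97 on the log2 scale (SE 0.432, 95% interval -2.90 to -1.03, adjusted p = 0.0171) and Sele fell by 1.53 (SE 0.432, 95% interval -2.47 to -0.60, adjusted p = 0.0467). Ackr1 fell by 1.98 (SE 0.474, 95% interval -3.01 to -0.96, adjusted p = 0.024). Madcam1 fell by 3.21 (SE 0.853, 95% interval -5.05 to -1.36, adjusted p = 0.0377), from 33 to 174 reads in each day 1 library to 9 to 17 reads in each day 7 library. For each of these 4 genes, the day 1 and day 7 ranges did not overlap. Vcam1 (-0.93, adjusted p = 0.0636) and Icam1 (-0.71, adjusted p = 0.132) also had ranges that did not overlap, and they missed the threshold. Vcam1 passed it in DESeq2 (-0.97, adjusted p = 0.0171), with the endothelial score as a covariate (0.0373), and without PBS day 4 replicate 2 (0.0446) or day 7 replicate 1 (0.0187), and Icam1 without PBS day 1 replicate 2 (0.049).

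With the thymocyte score as a covariate, 0 of these 4 calls were left, with adjusted p-values of 0.239 for Selp, 0.321 for Ackr1, 0.354 for Sele and 0.118 for Madcam1 and log2 differences of -1.90, -1.80, -1.39 and -3.97. Likewise, 0 were left without day 1 replicate 1, without day 1 replicate 2 or without day 7 replicate 2, the library with the highest thymocyte markers. Selp alone was left without day 7 replicate 3, Selp and Ackr1 without day 1 replicate 3, and Selp with Vcam1 without day 7 replicate 1. The tag family is the start of the tag after the replicate number in a library's column name (k3, kk or neither). With the tag family added to the fit, Selp and Ackr1 were left, and Sele (adjusted p = 0.11) and Madcam1 (0.145) were lost. Sele was also lost without day 4 replicate 2 (adjusted p = 0.0657) and without day 4 replicate 3 (0.0632), and with genes required to reach 10 counts in all 13 libraries (0.0517), a filter that Madcam1 did not pass.

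Between days 1 and 4, 0 of 8 genes were called by edgeR (background 1.43%), and 4 of 8 had an unadjusted p under 0.05. DESeq2 called 2 of 8, Selp and Madcam1, and 960 among all genes. Selp had a log2 difference of -1.41 (95% interval -2.32 to -0.49, adjusted p = 0.146) and Ackr1 one of -1.37 (95% interval -2.37 to -0.36, adjusted p = 0.205). Both had day 4 values below all day 1 values. Without PBS day 4 replicate 2, Selp passed the threshold (adjusted p = 0.0334). Between days 4 and 7, 0 of 8 were called by edgeR (background 3.9%) or by DESeq2 (1919 called among all genes). In edgeR, Vcam1 and Icam1 had an unadjusted p under 0.05.

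**Figure D4:**
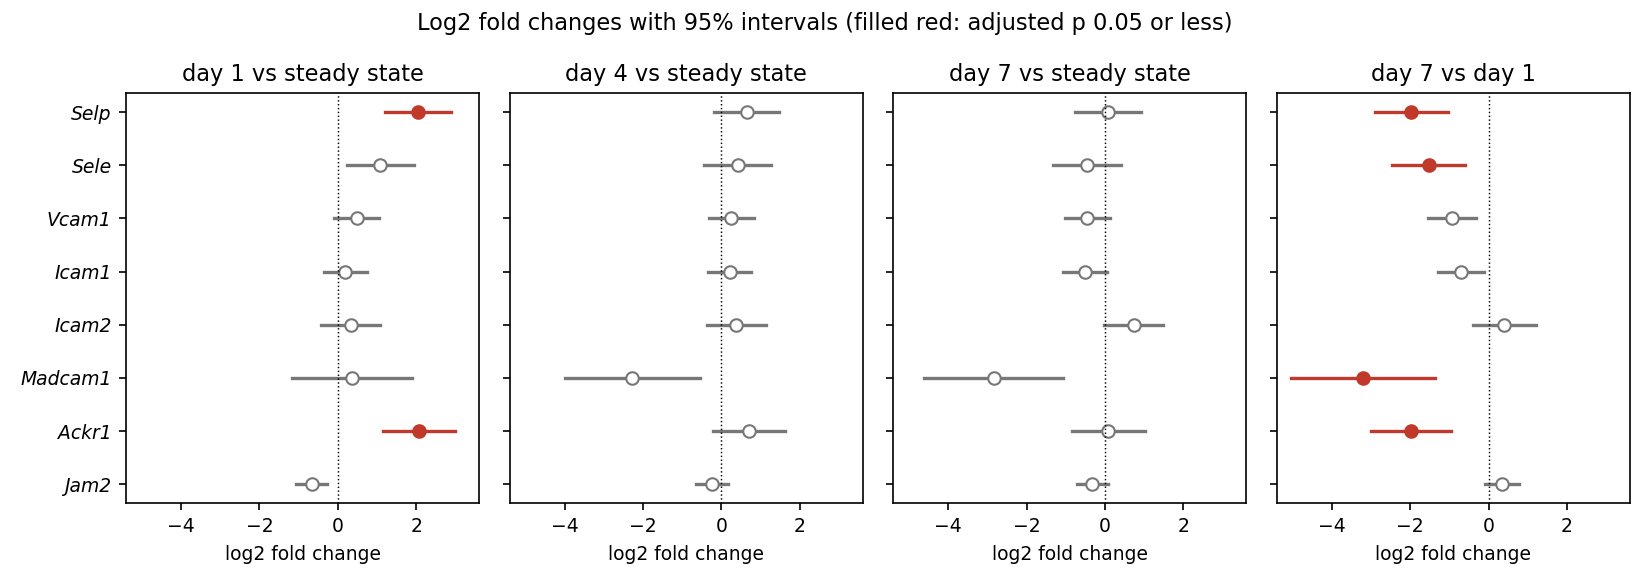
Log2 fold changes of the 8 genes (dots) with 95% intervals (lines) in 4 comparisons, filled red where the adjusted p was 0.05 or less. Selp and Ackr1 are filled at day 1 against steady state, none is filled at day 4 or day 7 against steady state, and Selp, Sele, Madcam1 and Ackr1 are filled at day 7 against day 1.

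The levels of other genes were set beside these changes. Of 12 endothelial identity genes, 0 were called at day 1 against steady state by edgeR (median log2 fold change 0.01), 3 had an unadjusted p under 0.05 and DESeq2 called 3 (Eng higher, Kdr and Cldn5 lower). Their summed CPM was 1130 to 1820 at steady state and 1280 to 1520 at day 1. Relative to the mean log2 level of these endothelial genes, Selp stood at -2.86 ± 1.01 (SD, n = 4) at steady state and -0.61 ± 0.53 (SD, n = 3) at day 1. Ackr1 stood at -3.03 ± 1.15 and -0.77 ± 0.64 on the same scale. With the endothelial score as a covariate, the day 1 log2 fold changes were 1.98 for Selp (adjusted p = 0.00941) and 2.03 for Ackr1 (adjusted p = 0.0118). Of 7 venous endothelial genes, 0 were called at day 1 by edgeR or DESeq2 (median 0.22), and 2 had an unadjusted p under 0.05. The sums overlapped, at 340 to 538 CPM at steady state and 305 to 802 CPM at day 1.

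Markers of other cell types that carry some of these molecules were also counted. Platelets hold P-selectin, and 1 of 6 platelet and megakaryocyte genes tested rose at day 1: Ppbp, a platelet chemokine, was at 1.01 to 2.15 CPM at steady state and 6.7 to 11.4 CPM at day 1 (log2 fold change 2.61, adjusted p = 0.00745). DESeq2 also called Pf4 there. The summed CPM of all 7 genes of that list was 8.99 to 16.7 at steady state and 19.5 to 28.3 at day 1. The median log2 fold change of the 6 genes tested was 0.02 at day 1. Gp9, Gp1ba, Treml1 and Gp6 of that list were at or near 0, under 1.1 CPM in every library, while Ppbp and Pf4 were higher at day 1 in DESeq2. The part of platelet RNA in the Selp result was not tested.

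Red cells are known to carry ACKR1, and the erythroid markers moved the opposite way to Ackr1 at day 1. Slc4a1 and Alas2 were among those that fell, and the summed CPM of the list of 7 was 1560 to 3580 at steady state, 291 to 974 at day 1 and 6.46 to 10.1 at day 4. Of 6 pericyte and smooth muscle genes, Pdgfrb rose at day 1 (log2 fold change 1.68, adjusted p = 0.00547) and fell from day 1 to day 7 (-1.83, adjusted p = 0.00588), as Selp did. The sums of that list were 837 to 1750 CPM at steady state and 1900 to 2760 CPM at day 1, of which Pdgfrb made up means of 434 and 1390 CPM. Only Pdgfrb of the 6 genes was called at day 1, and their median log2 fold change was 0.41. Of the 12 endothelial identity genes, edgeR called 1 at day 7 against day 1, Eng, an endothelial receptor gene, as lower (-0.70, adjusted p = 0.045), and DESeq2 called 3, Eng as lower and Kdr and Cldn5 as higher. The part of these other cell types in the values of the adhesion genes was not tested. At day 1, edgeR called 0 of 8 myeloid markers (1 with an unadjusted p under 0.05, and 1, Cd68, called by DESeq2) and 0 of 8 thymic epithelial markers (1 with an unadjusted p under 0.05, and 0 called by DESeq2). Of 8 fibroblast markers 1, Postn, fell, with 5 at an unadjusted p under 0.05, 2 called as lower by DESeq2 (Postn and Ptn) and a median log2 fold change of -1.05. At day 7 against day 1, edgeR called 1 of the 8 thymic epithelial markers, Krt14, as lower (-1.79, adjusted p = 0.0115). DESeq2 called 3 there as lower, Aire, Krt14 and Krt5, and the median log2 fold change was -1.2. Against steady state, DESeq2 called 2 at day 4 (Krt5 higher, Aire lower) and 1 at day 7 (Aire lower), and edgeR called 0. The part of epithelial RNA in the adhesion genes was not tested.

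**Figure D5:**
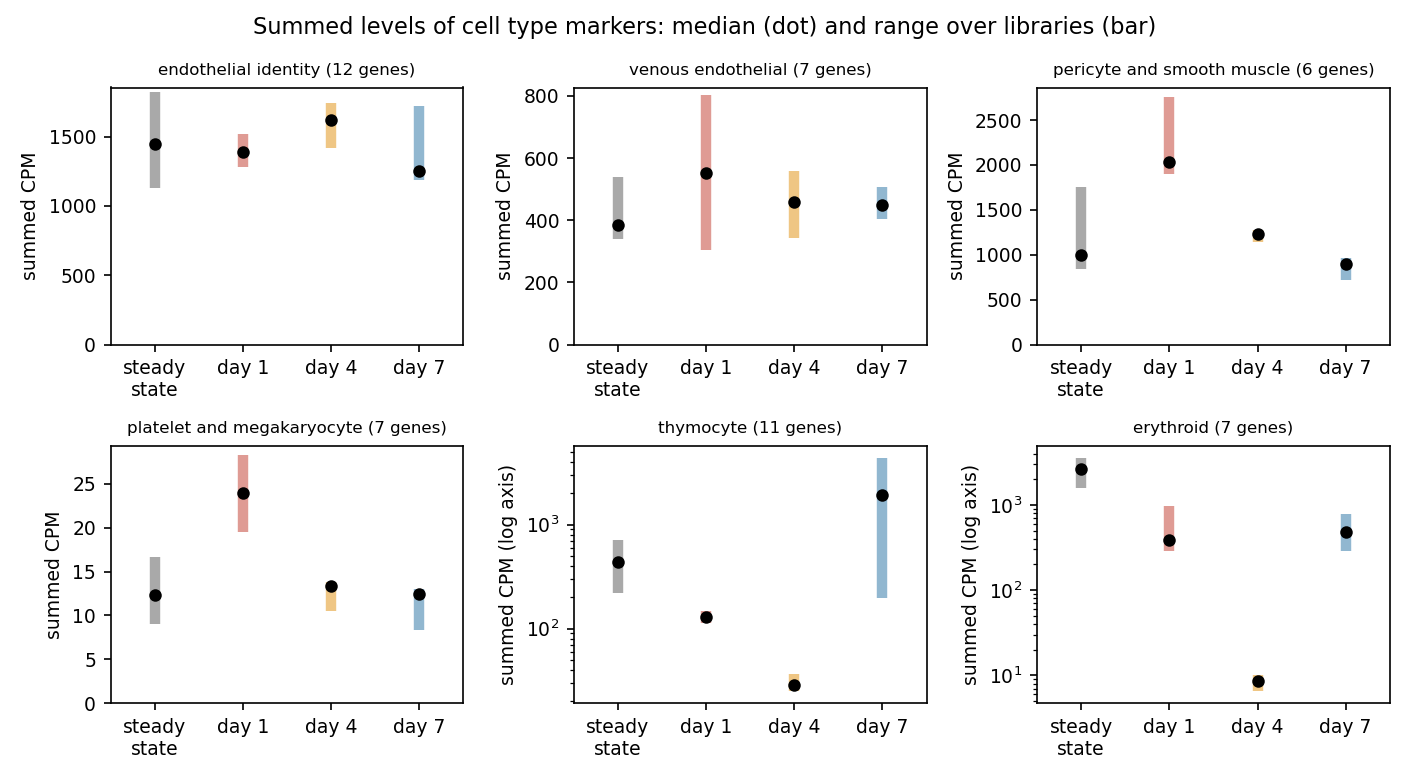
Summed CPM of 6 lists of cell type markers by group, with a dot for the median and a bar for the range over libraries. The thymocyte and erythroid panels have log axes, and the others start at 0. The platelet and pericyte ranges at day 1 (19.5 to 28.3 and 1900 to 2760 CPM) lie above those at steady state, while the endothelial ranges overlap. In the platelet and pericyte lists, edgeR called 1 of 6 genes tested in each at day 1, with median log2 fold changes of 0.02 and 0.41.

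The wider set of trafficking genes was counted next. Of 20 other vascular adhesion genes, among them junctional molecules and the enzymes that build selectin ligands, edgeR called 0 in 5 of the 6 comparisons, in which 1 to 3 genes had an unadjusted p under 0.05. DESeq2 called 1 in these, Mcam, as higher at day 1 than at steady state. At day 7 against day 1, edgeR called 1, Stab2, a scavenger receptor, as higher (2.24, adjusted p = 0.0263), at under 4 CPM in every library. In that comparison 4 genes had an unadjusted p under 0.05, and DESeq2 called 2, Stab2 as higher and Chst2 as lower. Of 15 genes of the NF-kB and lymphotoxin pathway, which is known to induce Sele, Vcam1, Icam1 and Madcam1 in endothelium, edgeR called 0 in each of the 6 comparisons, with 0 to 4 at an unadjusted p under 0.05. DESeq2 called 1, Tnfaip3, an inhibitor of this pathway, as lower at day 1 than at steady state. Their median log2 fold change at day 1 was -0.17 against steady state.

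The leukocyte counter-receptors belong to the cells that the adhesion molecules bind. Of 11 such genes, 5 rose at day 7 against day 1, among them Selplg, the PSGL-1 gene (3.70, adjusted p = 0.0182), the chemokine receptor gene Ccr9 (3.59, adjusted p = 0.0182), and the integrin genes Itgal (3.17, adjusted p = 0.0449) and Itga4 (3.11, adjusted p = 0.0298). Selplg was at 6.92 to 7.31 CPM at day 1 and 7.94 to 190 CPM at day 7. Its day 7 spread went with that of the thymocyte markers, and the part of thymocyte RNA in these values was not tested. Ccr9 was also lower at day 4 than at steady state (-5.39, adjusted p = 0.0183).

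At steady state, the 8 genes did not share a highest library. The highest library was PBS day 4 replicate 2 for Selp, Ackr1 and Vcam1, PBS day 1 replicate 2 for Sele, Icam1, Icam2 and Madcam1, and PBS day 7 replicate 2 for Jam2. Sele followed Vcam1 across the 13 libraries (r = 0.839) more than it followed Selp (0.76), Ackr1 (0.676) or Icam1 (0.652). Without day 1 these values were 0.768, 0.459, 0.269 and 0.623 in the same order (10 libraries). The genes most alike to Sele were Il6 (r = 0.937), Bhlhe40 (0.933) and Ch25h (0.905), and Bhlhe40 (0.906) and Lasp1 (0.902) were among those most alike to Vcam1. For Jam2 they were Jcad (0.901), Zfp112 (0.899) and Cpeb1 (0.889), for Icam2 Ttc5 (0.959), Imp4 (0.937) and Gin1 (0.929), and for Madcam1 Lypd8 (0.926), Hdc (0.926) and Lyz1 (0.925). These, too, are descriptions over the same libraries.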

How the data were processed

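The deposited table holds raw counts of reads per gene and library, and the exonic length of each gene. They were made by the authors with Trimmomatic 0.38 for trimming, STAR 2.7.0e for alignment to GRCm38.p5 (mm10, GENCODE M12) and featureCounts 1.6.3 at default settings, which ignore strand, and they are not normalized. Symbols came from GENCODE M21 (53274 of 53379 genes), as did the annotated features in the promoter stretches. Gene coordinates and exonic lengths came from the deposited table. The 105 other genes have no symbol here and were kept in the fit by identifier. Steady-state columns name PBS controls and carry no replicate numbers of the labels, so they were used as a group.

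All 13 libraries entered 1 fit in edgeR 4.0.16 (R 4.3.3) with TMM, filterByExpr by group (minimum count 10) and the quasi-likelihood F-test, and 19984 genes were tested. A gene was called at a Benjamini-Hochberg adjusted p of 0.05 or less over all of them. Standard errors are the log2 fold change divided by the square root of F. CPM values use TMM library sizes, and scores are mean log2(CPM + 0.5) of a list. The steps were tested on simulated data.

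The 8 genes and the lists were chosen with earlier results of these data known. All 8 genes are named. Of the other lists, at most 4 called genes with at least 5 CPM are named for each comparison, and Stab2 and the genes called by DESeq2 alone were named after their values were seen. Some genes that this rule names are not reported here. The alternatives were DESeq2 1.42.0, RLE, no filter, at least 10 counts in every library, only the groups compared, a replicate block, the tag family of the column name (how its tag starts), endothelial and thymocyte scores as covariates, and each library left out. A later part of the tag marks every day 7 library and no other, and it cannot be told apart from day 7.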

Additional observations from a re-analysis of the deposited data

Results flagged for a closer look

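Selp at steady state had 1 library far from the others: PBS day 4 replicate 2 was at 23.8 CPM, against 7.79 to 10 CPM in the other 3. The gap took up 0.86 of the range of the 4 libraries, above Dixon's critical value for 4 values. With 8 genes examined, 0.4 such flags would be expected by chance. The same library was the highest for Ackr1 (21.4 CPM, ratio 0.635), which did not pass the critical value, and it had the lowest endothelial score of the 4 (6.07, against 6.17 to 6.77).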

How the results depend on the processing

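Selp and Ackr1 were higher at day 1 than at steady state in all 22 alternatives each, with log2 fold changes of 1.88 to 2.58 and 1.74 to 2.60. They stayed past the threshold in 17 and 15 of these. At day 7 against day 1, the falls of Selp, Ackr1, Sele and Madcam1 stayed past it in 18, 15 and 10 of 22 and in 12 of 21. The number of the 8 genes called at day 1 against steady state was 2, and it was 3 with DESeq2, 0 with only the groups compared, 0 with the replicate block, 1 with the thymocyte score, and 0 to 2 with a library left out. At day 7 against day 1 it was 4, and it was 5 with DESeq2, 5 with the endothelial score, 2 with at least 10 counts in every library, 1 with the replicate block, 2 with the tag family, 0 with the thymocyte score, and 0 to 5 with a library left out. At day 7 against steady state the count of 0 became 1 with DESeq2 and 1 with no filter (Madcam1 in both). At day 4 against day 1 the count of 0 became 2 with DESeq2, 1 with the endothelial score (Madcam1), and 0 to 1 with a library left out. At day 4 against steady state and day 7 against day 4 it was 0 in every alternative. The causes were not tested.

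Signs changed in 30 of 1050 comparisons of single genes, all of them for differences that were not called. With the thymocyte score, the log2 difference of Vcam1 became -0.50 at day 4 against steady state and 0.33 at day 7 against day 4, that of Icam2 became -0.48 at day 7 against day 1 and -1.08 at day 7 against day 4, and that of Jam2 became 0.24 at day 7 against day 4. With the endothelial score, Icam1 became -0.14 and Icam2 -0.24 at day 4 against day 1, and Madcam1 0.45 at day 7 against day 4. With the tag family, Selp became -0.12 and Ackr1 -0.23 at day 7 against steady state and Icam2 -0.17 at day 4 against day 1, and with at least 10 counts in every library Icam1 became -0.01 at day 4 against day 1. With a library left out, these ran, for Icam2 from -0.12 to 0.54 at day 1 against steady state, for Madcam1 from -0.27 to 1.53 at day 1 against steady state, for Selp from -0.18 to 0.61 at day 7 against steady state, for Ackr1 from -0.16 to 0.61 at day 7 against steady state, for Icam1 from -0.08 to 0.15 at day 4 against day 1, for Icam2 from -0.16 to 0.50 at day 4 against day 1, for Icam2 from -0.11 to 0.84 at day 7 against day 1, for Icam2 from -0.20 to 0.55 at day 7 against day 4, and for Jam2 from -0.21 to 0.01 at day 7 against day 4.

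The replicate numbers did not pair the libraries: the correlation of same-numbered libraries after TBI ran from -0.71 to 0.207 over 9 pairs. With the replicate block, Selp at day 1 against steady state was 2.11 (adjusted p = 0.0619) and Ackr1 2.15 (0.0929), and at day 7 against day 1 Selp was -2.0 (0.0494), Ackr1 -2.03 (0.0633), Sele -1.53 (0.11) and Madcam1 -3.11 (0.0931).

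The number of all genes called depended more on the setting. For day 1, day 4 and day 7 against steady state it was 469, 58 and 1, with DESeq2 1399, 645 and 1081, with the replicate block 209, 27 and 0, and with no filter 555, 250 and 627. For day 4 against day 1, day 7 against day 1 and day 7 against day 4 it was 285, 1625 and 779, with DESeq2 960, 2940 and 1919, with the replicate block 147, 655 and 95, and with no filter 354, 2004 and 1265. With the thymocyte score, day 7 gave 310 against steady state, 516 against day 1 and 44 against day 4. In the same order of 6 comparisons, the endothelial score gave 761, 362, 51, 800, 2656 and 1396, the tag family 1066, 33, 0, 163, 1416 and 854, only the groups compared 228, 146, 0, 258, 1130 and 394, and at least 10 counts in every library 504, 20, 0, 282, 880 and 355. With a library left out the ranges were 252 to 797, 19 to 226, 0 to 622, 87 to 362, 472 to 2043 and 15 to 1507. Madcam1 had 7 to 263 reads per library.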
